A study of Homo sapiens with 4 samples.

Results

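Prostaglandin and leukotriene enzymes and receptors were examined in a pair of THP-1 sublines, as 10 genes chosen by name: the phospholipase PLA2G4A, the prostaglandin synthases PTGS1, PTGS2, PTGES and PTGES3, the leukotriene pathway genes ALOX5, ALOX5AP and LTA4H, and the prostaglandin receptors PTGER2 and PTGER4. The list was chosen with earlier results of these data known, so its shares and medians beside those of all genes can reflect that choice. The genes were found through probe sets annotated to a single gene, and all 10 were present among 19775 such genes, with 19 of the 54675 probe sets of the array. THP-1 is an established human monocytic leukemia line, and the sublines carry either Siglec-14 or Siglec-5, sialic acid-binding receptors of myeloid cells, of which Siglec-14 is activating and Siglec-5 inhibitory. Both sublines were kept for 6 h in serum-free macrophage medium, either alone or with 100 heat-killed bacteria of nontypeable Haemophilus influenzae (NTHi) strain 2019 per cell. This gave 4 samples, Siglec-14,NTHi[−], Siglec-14,NTHi[+], Siglec-5,NTHi[−] and Siglec-5,NTHi[+], each hybridized to 1 Affymetrix HG-U133 Plus 2.0 array. By the methods of the study, the sublines stand for monocytes of people with and without a working SIGLEC14 gene. The sources used here do not say whether each is a single clone or what drives its Siglec. The comparisons ask how the eicosanoid genes respond to NTHi in each subline and how the sublines differ with and without the bacteria.

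Eicosanoids are short-lived signaling lipids made from arachidonic acid, which cytosolic phospholipase A2 (PLA2G4A) cuts from membrane phospholipids. In one branch, the cyclooxygenases PTGS1 (COX-1, usually constitutive) and PTGS2 (COX-2, usually inducible) make prostaglandin H, and the synthases PTGES and PTGES3 turn it into prostaglandin E, which acts on the cyclic AMP-raising receptors PTGER2 (EP2) and PTGER4 (EP4) on monocytes and macrophages. In the other branch, 5-lipoxygenase (ALOX5), helped by its membrane partner FLAP (ALOX5AP), makes leukotriene A, and LTA4H hydrolyzes it to the neutrophil attractant leukotriene B.

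Each array gave 1 linear signal intensity for each probe set, and with 1 array per condition no value has a replicate error of its own. In such bulk samples fewer expressing cells and less RNA per cell cannot be told apart. Sums of all signals ran from 12735500 to 14047100 and median signals from 15.1 to 16.5. The median of all signals, 16, was taken as the floor under which a signal was not read as expression. A gene's values are those of its brightest probe set over the 4 arrays, except where a further one is described, and 9 of the 10 genes reached the floor on every array, all but PTGES. A limma fit to the log2 signals of all 4 arrays, additive in NTHi and cell line, was used as the only test. In this shared fit the NTHi term is the mean of the log2 ratios in the 2 lines, and the line term the mean over the 2 conditions. A change mostly in 1 line or 1 condition can therefore pass, so passing does not show that a change is shared. The p-values of the fit were adjusted by the Benjamini-Hochberg method over 32017 probe sets. With only 1 residual degree of freedom, its standard errors come from the trend of the variance with intensity and leave out the gene's own spread. Where the trend was dropped, 0 of 13935 genes passed for either term in limma, and at p under 0.05 before adjustment there were 749 genes for NTHi and 1661 between the lines. Labels of the samples were not tested by the SIGLEC5 probe set, whose signals of 21.3, 19.5, 4.13 and 21.6, in the order in which the samples are named above, did not separate the lines. No probe set was annotated to SIGLEC14, alone or with other genes. Of 9 measured myeloid markers, 7 reached the floor on all arrays, with LYZ at 3036 to 3430 and CEBPA at 1221 to 1292, while CD14 (0.808 to 11.4) and FCGR1A (3.37 to 13.6) stayed under it. In the shared fit ITGAM (290 and 353 against 198 and 167, line term 0.81, adjusted p = 3.59e-05) and TYROBP (329 and 376 against 205 and 186, line term 0.85, adjusted p = 1.01e-05) were higher in Siglec-14/THP-1, and MPO, a marker of early granulocytic and monocytic cells, was lower (1152 and 1365 against 2408 and 2186, line term -0.87, adjusted p = 1.10e-06). The summed signal of 3 mast cell markers, a cell type rich in these enzymes, was 12.9 to 33.5, and none of them reached the floor. Of 4 megakaryocyte and platelet markers, 3 reached it on at least 1 array and 2 on all (GP9 17.6 to 36.8, GP1BA 20.1 to 26.6). Of 4 epithelial markers, 2 reached it on all arrays (EPCAM 64.2 to 88.3, KRT18 56.2 to 86.0). Of 3 B cell markers, 2 reached it on at least 1 array and 1 on all. Of 4 fibroblast markers, 2 reached the floor on at least 1 array, and their summed signal was 289 and 289 in Siglec-14/THP-1 and 166 and 154 in Siglec-5/THP-1, most of it COL1A1 (266 and 257 against 141 and 132). Of 4 T cell markers, 3 reached it on at least 1 array and 0 on all, with sums of 28.9 and 35.4 without and with NTHi in Siglec-14/THP-1 and 22.1 and 58.9 in Siglec-5/THP-1. The part of these in the results was not tested.

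**Figure D1:**
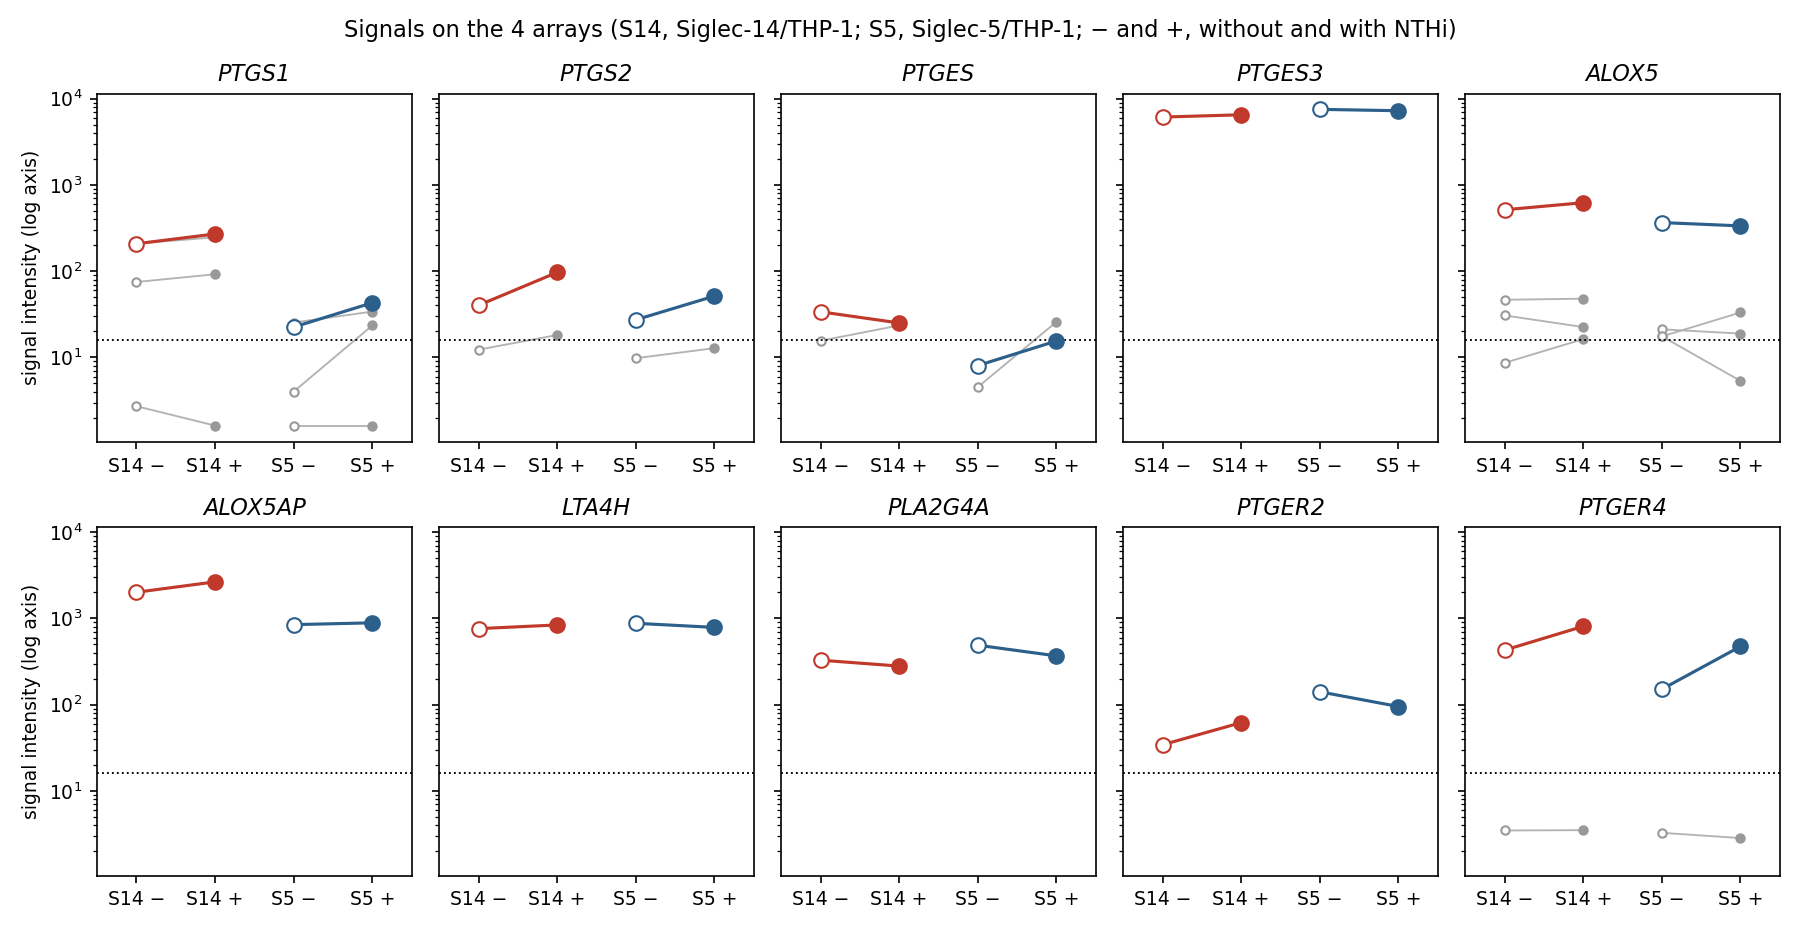
Signal intensity (log axis) of each gene on the 4 arrays, 1 panel per gene. Large symbols are the probe set with the highest mean signal, red for Siglec-14/THP-1 and blue for Siglec-5/THP-1, open without and filled with NTHi, small gray symbols are the other probe sets, lines join the arrays of 1 subline, and the dotted line is the floor at 16. The red symbols of PTGS1, ALOX5AP and ALOX5 lie above the blue ones, those of PTGER2 below them, and PTGS2 and PTGER4 slope upward in both sublines.

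NTHi raised PTGS2 and PTGER4, the inducible cyclooxygenase and a prostaglandin E receptor, in the fit shared by both lines. These were 2 of the 10 genes, against 0.99% of all 13935 genes tested in that direction, and 0 of the 10 passed in the other direction, against 0.294%. The remaining 8 did not pass. Over all genes, 138 were higher and 41 lower with NTHi, whereas scaling the arrays to equal sums of signals gave 344 higher and 380 lower.

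PTGS2 had a signal of 40.2 in Siglec-14,NTHi[−] and 96.8 in Siglec-14,NTHi[+], against 27.3 in Siglec-5,NTHi[−] and 51.4 in Siglec-5,NTHi[+]. Both stimulated arrays were above both nonstimulated ones, and how many of all genes show such an order was not counted. The fold was 2.41 in Siglec-14/THP-1 and 1.88 in Siglec-5/THP-1, and the shared log2 NTHi term was 1.09 with a standard error of 0.267 and an adjusted p of 0.00749 in limma. These signals stayed below the 75th percentile of all signals, 105, on every array. A second PTGS2 probe set reached the floor on 1 array only, Siglec-14,NTHi[+], with 18.2, and had 12.3, 9.79 and 12.8 on the others. Its folds with NTHi, 1.47 and 1.31 from signals mostly under the floor, did not pass the test.

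PTGER4, the EP4 receptor, had signals of 429 and 809 without and with NTHi in Siglec-14/THP-1 and of 151 and 473 in Siglec-5/THP-1. The stimulated Siglec-5 array thus lay just above the nonstimulated Siglec-14 array. Its fold was 1.89 in Siglec-14/THP-1 and 3.12 in Siglec-5/THP-1, and this was the only change of at least 3-fold with NTHi among the 10 genes in either line, where 1.87% of genes were at least 3-fold higher and 2.08% at least 3-fold lower in Siglec-5/THP-1. In Siglec-14/THP-1 no gene of the 10 reached 3-fold, against 1.67% of all genes higher and 1.93% lower. For PTGER4 the shared log2 term was 1.28 (standard error 0.156, adjusted p = 2.14e-13). The log2 response differed between the lines by -0.73, Siglec-14 minus Siglec-5, a spread that the standard error leaves out, and with 1 array per condition this difference was not tested. The other PTGER4 probe set gave 2.84 to 3.51 on the 4 arrays, under the floor throughout. Averaged over their probe sets, the NTHi terms of PTGS2 (adjusted p = 0.691) and PTGER4 (adjusted p = 0.730) no longer passed, nor did either when cell line was dropped from the fit.

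The starts of these genes are shown because PTGS2 and PTGER4 are the members that rose with NTHi in the shared fit, and because PTGS1 differed most between the lines. Each sequence is the 250 bases before a RefSeq transcript start, 5′ to 3′ on the gene's strand, in build GRCh38.p14; of the 10 genes, 9 have an entry there, and ALOX5 has none. Capitals mark matches, on either strand, to 6 motifs. These were the TATA box, searched as TATAAA, and a loose NF-κB pattern, searched as GGGNNNNNCC. The C/EBP motif was searched as TTNNGNAAT, and the core of a cyclic AMP response element as CGTCA. The AP-1 motif was searched as TGANTCA. The GC box of Sp1 was searched as GGGCGG, which can overlap the NF-κB pattern. Overlapping matches run together in 1 block. PTGS2 lies at chr1:186680424-186680673 on the minus strand, PTGER4 at chr5:40679665-40679914 on the plus strand, and PTGS1 has starts with windows at chr9:122370283-122370532 and chr9:122375052-122375301 on the plus strand.
PTGS2: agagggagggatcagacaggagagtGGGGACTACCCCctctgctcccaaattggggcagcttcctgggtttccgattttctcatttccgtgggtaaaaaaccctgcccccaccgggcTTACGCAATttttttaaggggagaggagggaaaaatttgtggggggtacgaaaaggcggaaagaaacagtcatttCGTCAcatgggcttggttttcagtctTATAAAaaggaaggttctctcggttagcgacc
PTGER4: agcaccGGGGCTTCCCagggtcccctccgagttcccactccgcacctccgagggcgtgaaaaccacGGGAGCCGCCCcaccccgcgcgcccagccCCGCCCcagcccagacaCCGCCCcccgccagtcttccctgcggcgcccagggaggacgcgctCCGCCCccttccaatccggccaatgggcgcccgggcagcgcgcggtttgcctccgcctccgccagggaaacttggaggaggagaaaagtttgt
PTGS1 start 1: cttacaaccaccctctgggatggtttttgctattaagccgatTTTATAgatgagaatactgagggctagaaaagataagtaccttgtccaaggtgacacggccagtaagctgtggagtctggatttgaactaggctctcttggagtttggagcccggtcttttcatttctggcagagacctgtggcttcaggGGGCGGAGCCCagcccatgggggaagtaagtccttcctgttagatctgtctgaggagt
PTGS1 start 2: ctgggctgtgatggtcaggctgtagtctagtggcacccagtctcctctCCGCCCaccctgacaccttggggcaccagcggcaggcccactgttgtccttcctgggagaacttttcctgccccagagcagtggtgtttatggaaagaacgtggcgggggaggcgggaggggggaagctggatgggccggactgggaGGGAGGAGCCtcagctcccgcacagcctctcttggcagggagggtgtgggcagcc

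In this window PTGS2 held a TATA box whose first base is 32 bases before the start, a cyclic AMP element core at 58, a C/EBP match upstream of that and a block of overlapping NF-κB-like matches from 225. Matches of these kinds occur in 10.7%, 21.2%, 9.85% and 54.4% of 35116 RefSeq promoters, so the loose NF-κB pattern is common. PTGER4 held no TATA box in the window, but 4 GC boxes on the opposite strand, a motif found in 42.6% of promoters, and NF-κB-like matches at 244, 184 and 183 bases before the start. At its upstream start PTGS1 held a GC box at 58 that overlaps NF-κB-like matches, and a TATA pattern on the opposite strand at 208. At the downstream start an NF-κB-like match lay at 55 and a GC box on the opposite strand at 202. No member window among the 4 shown held the AP-1 letters, which occur in 6.57% of promoters. GC content was 50.4% for PTGS2, 72.8% for PTGER4, and 49.6% and 65.2% for the starts of PTGS1. These are matches of letters and not tested binding sites. PTGS2 and PLA2G4A are neighbors on chromosome 1, with 0 protein-coding genes between them in RefSeq.

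**Figure D2:**
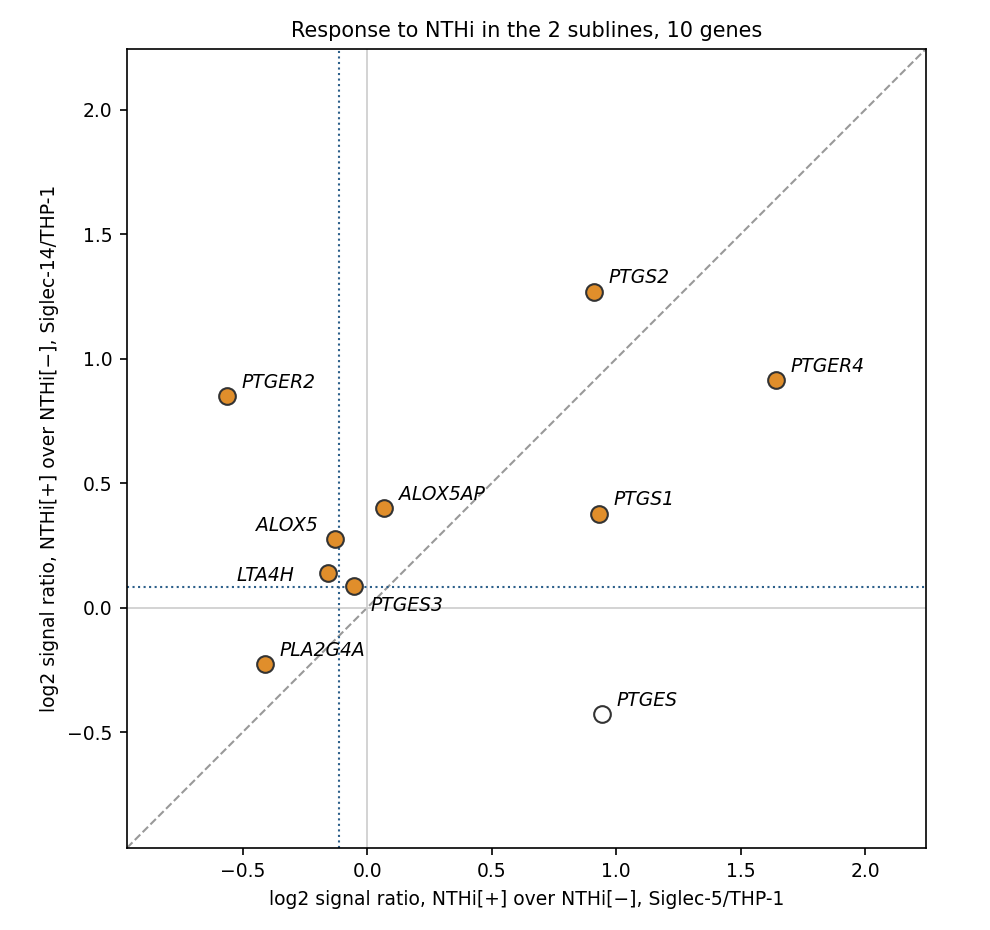
Log2 signal ratio of NTHi[+] to NTHi[−] in Siglec-5/THP-1 (x axis) and Siglec-14/THP-1 (y axis) for the 10 genes, each from its probe set with the highest mean signal. The open circle, PTGES, had signals under the floor, points on the dashed diagonal have equal ratios and dotted lines give the all-gene medians, -0.11 on x and 0.08 on y. PTGS2 (0.91, 1.27), PTGER4 (1.64, 0.91) and PTGS1 (0.93, 0.38) are above 0 on both axes, and PTGER2 (-0.56, 0.85) has opposite signs.

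PTGER2, the EP2 receptor, showed opposite signs of the NTHi ratio in the lines. Its signals were 34.3 and 61.9 without and with NTHi in Siglec-14/THP-1, a fold of 1.80, and 141 and 95.2 in Siglec-5/THP-1, where the nonstimulated array was 1.48-fold higher. The log2 response differed by 1.41. Under scaling to equal sums, equal medians, equal trimmed means or quantiles the ratios kept their signs (0.72 to 0.87 in Siglec-14/THP-1 and -0.50 to -0.43 in Siglec-5/THP-1). Equal sums, medians or trimmed means move the log2 ratios of all genes in a pair alike, so this does not test the PTGER2 signals themselves. The shared NTHi term, 0.14 (standard error 0.222), averages the ratios of the lines and did not pass, and the difference in response was not tested.

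PTGS1, the constitutive cyclooxygenase, had 208 and 270 in Siglec-14/THP-1 and 22.5 and 43.0 in Siglec-5/THP-1, so both lines were higher with NTHi, by 1.30-fold and 1.91-fold. Its NTHi term of 0.65 (standard error 0.209) had an adjusted p of 0.136, and it passed with the arrays scaled to equal sums, medians or trimmed means (adjusted p = 0.0336, 0.0119 and 0.0147). The PTGS1 probe sets differed here: another of like brightness had an NTHi term of 0.33 (standard error 0.213), and a dimmer one 1.42 (standard error 0.369, adjusted p = 0.0169), whose signal in Siglec-5,NTHi[−], 4.02, lay under the floor.

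The other genes did not pass for NTHi in the shared fit. PLA2G4A, which releases arachidonic acid, had lower signals with NTHi in both lines, 328 and 280 in Siglec-14/THP-1 and 489 and 368 in Siglec-5/THP-1, and its term of -0.32 (standard error 0.157) had an adjusted p of 0.756 but passed with equal sums (adjusted p = 0.0161) and equal trimmed means (adjusted p = 0.0427). ALOX5AP, the FLAP protein, had folds of 1.32 and 1.05 (adjusted p = 0.994, and 0.0336 and 0.00317 with those scalings), and ALOX5, the 5-lipoxygenase, had 1.21 in Siglec-14/THP-1 against 0.916 in Siglec-5/THP-1. LTA4H, which makes leukotriene B, had folds of 1.10 and 0.896, and the cytosolic prostaglandin E synthase PTGES3 had 1.06 and 0.964. The ratios of LTA4H and PTGES3 lie near the medians of all genes, which were 0.08 on the log2 scale in Siglec-14/THP-1 and -0.11 in Siglec-5/THP-1. With the arrays scaled to equal sums these medians were -0.06 and -0.05, and the PTGES3 ratios turned their signs to -0.05 and 0.01. Over the 10 genes, the median log2 ratio with NTHi was 0.33 in Siglec-14/THP-1, and over the 9 that reached the floor in the pair it was -0.05 in Siglec-5/THP-1.

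The sublines differed in 6 of the 10 genes in the shared fit. PTGS1, ALOX5AP, PTGER4 and ALOX5 were higher in Siglec-14/THP-1, 4 genes against 6.22% of all genes in that direction, and PTGER2 and PLA2G4A were lower, 2 genes against 4.95%. As the list was chosen with earlier results known, these shares cannot be told apart from that choice. Over all genes 867 were higher and 690 lower in Siglec-14/THP-1, whereas scaling to equal medians gave 1032 higher and 2204 lower. The 6 genes passed in the same direction under each of the 4 scalings.

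PTGS1 had the largest difference. Both Siglec-14 arrays, at 208 and 270, were far above both Siglec-5 arrays, at 22.5 and 43.0, with a ratio of 9.25 without NTHi and 6.30 with NTHi. The log2 term for the lines came to 2.93, with a standard error of 0.209 and an adjusted p of 1.42e-41. The probe set behind these values is of a type that can share probes with other transcripts, so the others matter here. One, with 209, 247, 25.4 and 34.0, had a line term of 2.95 (standard error 0.213, adjusted p = 1.19e-40). A dimmer one, with 74.9, 92.1, 4.02 and 23.5, was at least 4.68-fold higher in Siglec-14/THP-1 without NTHi and 3.92-fold higher with NTHi. The fourth PTGS1 probe set was at 1.59 to 2.72 on all arrays, under the floor.

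In the leukotriene branch, ALOX5AP had signals of 2011 and 2653 in Siglec-14/THP-1 against 847 and 889 in Siglec-5/THP-1. The ratio was 2.37 without and 2.99 with NTHi (line term 1.41, standard error 0.153, adjusted p = 5.81e-18). ALOX5, the enzyme that ALOX5AP supplies with substrate, had 515 and 622 against 366 and 335, with ratios of 1.40 and 1.86 (line term 0.69, standard error 0.154, adjusted p = 2.64e-04). A dimmer ALOX5 probe set, with 46.6, 48.0, 17.5 and 33.2, had a line term of 0.97 (standard error 0.328, adjusted p = 0.0392), while another did not pass (0.39, standard error 0.435) and the fourth reached the floor on 2 arrays only, with 8.65 and 16.3 in Siglec-14/THP-1 against 17.6 and 5.35, so that without NTHi it was lower in Siglec-14/THP-1. Averaged over its probe sets, ALOX5 did not pass (adjusted p = 0.210). LTA4H, the next enzyme of the branch, had 761 and 840 against 878 and 787, values that overlapped between the lines (line term -0.06, standard error 0.151, adjusted p = 0.913).

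**Figure D3:**
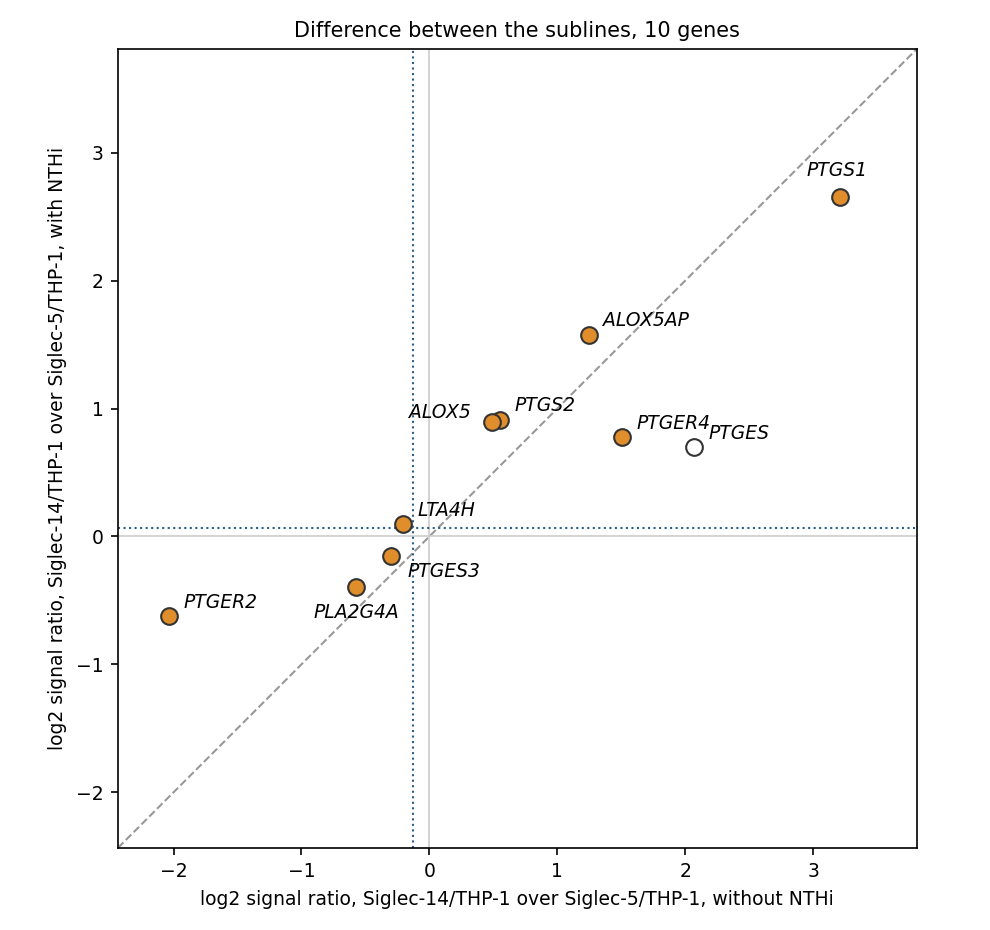
Log2 signal ratio of Siglec-14/THP-1 to Siglec-5/THP-1 without NTHi (x axis) and with NTHi (y axis) for the 10 genes. The open circle, PTGES, had signals under the floor, points on the dashed diagonal have equal ratios and dotted lines give the all-gene medians, -0.13 on x and 0.06 on y. PTGS1 (3.21, 2.65) stands farthest to the upper right and PTGER2 (-2.03, -0.62) farthest to the left.

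The prostaglandin E receptors differed between the lines in opposite directions. PTGER4 was 2.83-fold higher in Siglec-14/THP-1 without NTHi and 1.71-fold higher with NTHi (line term 1.14, standard error 0.156, adjusted p = 3.19e-11), but averaged over its probe sets it did not pass (adjusted p = 0.197). PTGER2 was 4.10-fold lower in Siglec-14/THP-1 without NTHi, where its signals were 34.3 and 141, and 1.54-fold lower with NTHi, at 61.9 and 95.2 (line term -1.33, standard error 0.222, adjusted p = 1.71e-07). For each receptor the ratio of the lines was nearer to 1 with NTHi than without. The standard error of PTGER2 leaves out the log2 difference of 1.41 between these ratios.

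PLA2G4A was 1.49-fold lower in Siglec-14/THP-1 without NTHi and 1.31-fold lower with NTHi (328 and 280 against 489 and 368, line term -0.48, standard error 0.157, adjusted p = 0.0291). PTGS2 was higher in Siglec-14/THP-1 in both conditions, 1.47-fold and 1.88-fold, with a line term of 0.73 (standard error 0.267) and an adjusted p of 0.0641. It passed with equal sums, equal trimmed means or a pseudocount of 16 (adjusted p = 0.0168, 0.0151 and 0.0424). PTGES3, also known as the cochaperone p23, had 6117 and 6501 against 7517 and 7243, so both Siglec-14 arrays were lower, by 1.23-fold and 1.11-fold (line term -0.23, standard error 0.178, adjusted p = 0.560). It passed as lower in Siglec-14/THP-1 under the 4 scalings, where 1572 to 2204 of all genes passed as lower, against 690 as deposited.

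PTGES, the inducible microsomal prostaglandin E synthase, was the member under the floor on 2 arrays, with 33.8 and 25.1 in Siglec-14/THP-1 and 8.05 and 15.5, both under the floor, in Siglec-5/THP-1. Against the floor it was at least 2.11-fold higher in Siglec-14/THP-1 without NTHi and at least 1.57-fold higher with NTHi, and its line term of 1.38 (standard error 0.533) had an adjusted p of 0.0889. It passed with equal trimmed means (adjusted p = 0.0470) and with a filter on the mean signal (adjusted p = 0.0461). Its other probe set had 15.6 and 23.5 in Siglec-14/THP-1 and 4.53 and 25.8 in Siglec-5/THP-1. That probe set was higher with NTHi in both lines, by at least 1.47-fold and 1.61-fold, whereas the first had opposite signs, so no direction with NTHi is given for PTGES.

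At the 3-fold threshold of the study, PTGS1 and PTGES were higher in Siglec-14/THP-1 without NTHi, with the PTGES ratio of 4.20 taken from a signal under the floor, and PTGER2 was lower. These are 2 and 1 of the 10 genes, against 3.51% and 1.70% of all genes. With NTHi, 1 of the 10, PTGS1, was at least 3-fold higher, against 4.06%, and 0 were at least 3-fold lower, against 1.69%. The median log2 ratio of the lines over the 10 genes was 0.52 without and 0.74 with NTHi, beside -0.13 and 0.06 for all genes.

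**Figure D4:**
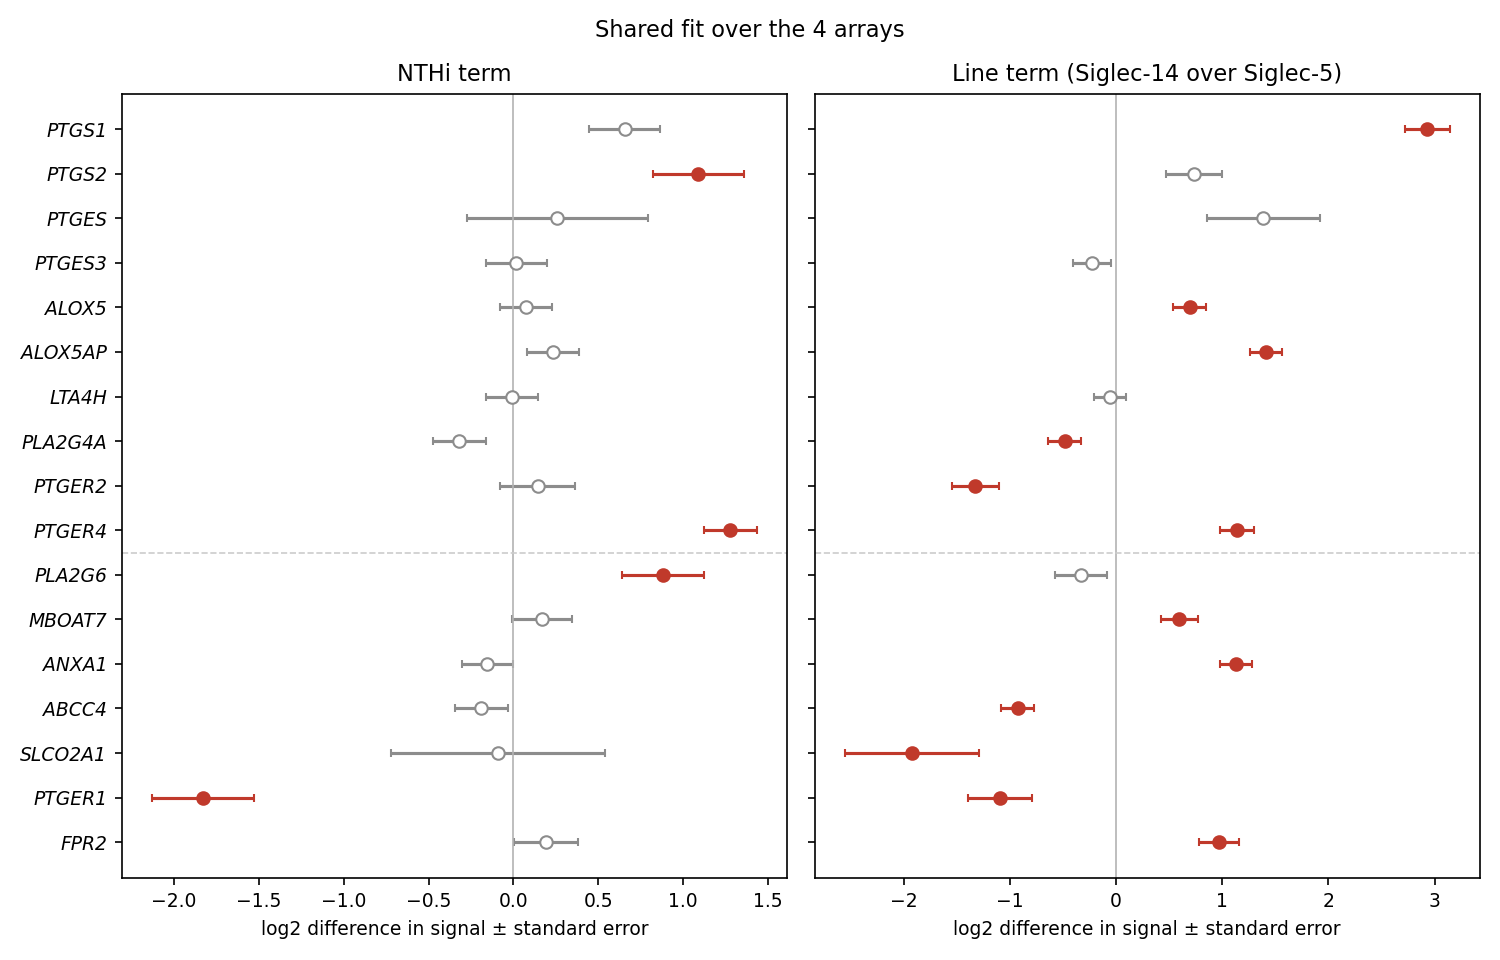
Terms of the limma fit over the 4 arrays for NTHi (left) and for Siglec-14/THP-1 over Siglec-5/THP-1 (right), as log2 differences in signal with their standard errors. Filled red symbols passed an adjusted p of 0.05, the 10 genes stand above the dashed line and 7 other eicosanoid genes below it. PTGS2 and PTGER4 passed for NTHi, and PTGS1, ALOX5, ALOX5AP, PLA2G4A, PTGER2 and PTGER4 for the line.

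A wider list of 53 other eicosanoid genes covered phospholipases, synthases, transporters, breakdown enzymes and receptors, and 50 of them had a probe set of their own, 36 of them at the floor on at least 1 array. For NTHi 1 of the 36 was higher, against 0.99% of all genes, and 1 lower, against 0.294%. For the lines 3 of the 36 were higher in Siglec-14/THP-1, against 6.22%, and 3 lower, against 4.95%. Counts this small were not tested against the shares of all genes. Over the 36 genes the median NTHi term was -0.05, beside 0.19 for the 10 genes and -0.02 for all genes. The median line term was 0.01, beside 0.71 for the 10 genes and -0.03 for all genes. No other prostanoid synthase (5 tested) and no other leukotriene or lipoxygenase enzyme (4 tested) passed for either term.

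PTGER1, a further prostaglandin E receptor, fell with NTHi in the shared fit, from 45.9 to 15.3 in Siglec-14/THP-1 and from 116 to 27.6 in Siglec-5/THP-1 (NTHi term -1.83, standard error 0.301, adjusted p = 6.51e-07). It was also lower in Siglec-14/THP-1 (line term -1.10, standard error 0.301, adjusted p = 0.00572). Its other probe sets, at 23.7, 6.00, 23.0 and 3.07 and at 23.9, 8.15, 6.84 and 5.64, did not pass for either term, and most of their signals lay under the floor. Their NTHi terms, -2.45 (standard error 0.956) and -0.92 (standard error 1.035), had the same sign as that of the brightest probe set. Their line terms, 0.51 and 1.17, had the opposite sign. Both PTGER1 calls thus rest on 1 probe set, of a type that can share probes with other transcripts. Among the prostaglandin E receptors, on the brightest probe set of each, PTGER4 rose and PTGER1 fell with NTHi in the shared fit. PTGER2 did not pass, and PTGER3 stayed under the floor (1.84 to 14.1). PLA2G6, a calcium-independent phospholipase, passed as higher with NTHi on 1 probe set (32.7 to 84.5 and 57.7 to 75.6, NTHi term 0.88, standard error 0.243, adjusted p = 0.0351), while a second had lower signals with NTHi in both lines (57.1 to 43.8 and 43.0 to 36.9) and the last had 22.8, 23.1, 11.9 and 25.4.

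Among genes around arachidonic acid, ANXA1, the phospholipase-restraining annexin, was higher in Siglec-14/THP-1 (1356 and 1343 against 685 and 559, line term 1.13, standard error 0.151, adjusted p = 1.22e-11). MBOAT7, which returns arachidonic acid to phosphatidylinositol, was also higher (189 and 208 against 123 and 141, line term 0.60, standard error 0.177, adjusted p = 0.0132), as was its second probe set (adjusted p = 0.0369). FPR2, the receptor of lipoxin and of annexin peptides, had 161 and 184 against 82.0 and 93.8 (line term 0.97, standard error 0.188, adjusted p = 1.28e-05), and its second probe set passed in the same direction. The prostaglandin exporter ABCC4 was lower in Siglec-14/THP-1, with 260 and 236 against 512 and 434 (line term -0.93, standard error 0.158, adjusted p = 2.95e-07). A second ABCC4 probe set passed in the same direction (29.6 and 37.8 against 91.2 and 61.5, adjusted p = 3.17e-04), and another, with 23.3 and 17.8 against 18.5 and 27.8, did not (line term -0.16, adjusted p = 0.919). The prostaglandin importer SLCO2A1 was under the floor in Siglec-14/THP-1, at 7.18 and 8.27, and had 33.4 and 25.6 in Siglec-5/THP-1. Against the floor, the Siglec-5/THP-1 signals were at least 2.09-fold and at least 1.60-fold higher. Its line term of -1.92 (standard error 0.632, adjusted p = 0.0317) was fitted to the signals under the floor as deposited. The call thus rests in part on values not read as expression.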

How the data were processed

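By the methods of the study, the authors read signals out with GeneChip Operating Software (version not given in the sources used here) and standardized them on the summed signal of all probes. The deposited values are signal intensities on a linear scale, and their sums still differ between arrays. They were used here as deposited. Probe sets were named with the platform's annotation, and 1 symbol of the wider gene list was updated to the current RefSeq symbol. Log2 signals were fitted with limma 3.58.1 (R 4.3.3), on additive terms for NTHi and cell line, with eBayes following an intensity trend (infinite prior degrees of freedom), over probe sets that reached the floor on 1 array or more. Adjusted p under 0.05 passed. The fit was run on simulated data with noise drawn from its own trend, which cannot show whether that trend understates the real spread. A further alternative, a filter on the geometric mean signal, was added after seeing the data. Alternatives covered scaling, floor, pseudocount, probe set choice, fold threshold and design. Members, gene lists, motifs and tests were chosen with earlier results of these data known. All members are named, and of the wider list those that passed the fit or were 3-fold different at or above the 75th percentile. Python 3.11.15, numpy 2.4.6, pandas 2.3.3 and matplotlib 3.10.9 did the rest.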

Additional observations from a re-analysis of the deposited data

Results flagged for a closer look

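Opposite signs in the 2 lines, or in the 2 conditions, were searched for among the members and the wider-list genes that passed the fit. Of these, 7 genes were marked for a closer look, and with 1 array per condition none of the differences was tested. Wider-list genes outside that search, such as ACSL4 (0.20 with NTHi in Siglec-14/THP-1 against -0.32 in Siglec-5/THP-1), are not counted. The log2 response to NTHi, Siglec-14/THP-1 minus Siglec-5/THP-1, was 1.41 for PTGER2 (0.85 against -0.56) and -1.37 for PTGES (-0.43 against 0.94), whose signals in Siglec-5/THP-1 lay under the floor. It was 0.40 for ALOX5 (0.27 against -0.13), 0.30 for LTA4H (0.14 against -0.16), 0.14 for PTGES3 (0.09 against -0.05) and 0.59 for SLCO2A1 (0.20 against -0.38), whose signals in Siglec-14/THP-1 lay under the floor. The medians of all genes were themselves 0.08 and -0.11. With the arrays scaled to equal sums, the ratios of PTGES3 turned to -0.05 and 0.01, while those of PTGER2 were 0.72 and -0.50. The log2 ratio of the lines, without minus with NTHi, was -0.30 for LTA4H (-0.20 against 0.09) and -0.98 for PLA2G6 (-0.82 against 0.16).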

How the results depend on the processing

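The genes counted for NTHi in the shared fit, 2 of the 10, became 5 with equal sums and 5 with equal trimmed means (PTGS1, ALOX5AP and PLA2G4A added), 1 with the floor at the 75th percentile, where PTGS2 was not tested, and 0 with probe sets averaged, with the dimmest probe set, without the trend and with cell line dropped. The 6 genes counted for the lines became 3 with the dimmest probe set and 0 without the trend. Of the wider list, the 2 genes for NTHi became 1 with quantile normalization, 1 with the floor at the 25th percentile, 1 at the 75th, 1 with no filter, 1 with the dimmest probe set, and 0 with averaged probe sets, without the trend and with cell line dropped. Its 6 genes for the lines became 10 with equal sums, 10 with equal medians, 10 with equal trimmed means, 11 with quantile normalization, 3 with the dimmest probe set and 0 without the trend. At least 3-fold different with NTHi in Siglec-14/THP-1 were 0 genes of the 10, and 1 at a 2-fold threshold. In Siglec-5/THP-1 the 1 gene became 2 with the dimmest probe set, 0 with a pseudocount of 16 and 0 at 4-fold. Without NTHi the 3 genes different between the lines became 1 with the dimmest probe set and 5 at 2-fold, and with NTHi the 1 gene became 2 at 2-fold. Apart from these, counts over the members and the wider list stayed within 1.5 times. Over all genes, the 179 that passed for NTHi became 724 with equal sums, 362 with equal medians, 756 with equal trimmed means, 329 with quantiles, 90 with the dimmest probe set, 0 without the trend and 0 with cell line dropped (289 at an unadjusted p under 0.05 in limma), and the 1557 for the lines became 3661, 3236, 3689, 3108 and 856 under the first 5 of these, and 0 without the trend.

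Of the terms of single genes, those whose sign turned were near 0 or from dim probe sets, and none had passed. They were the NTHi term of PTGES3 (-0.0177 with equal sums, -0.0757 with quantiles), of ALOX5 (-0.0373 with averaged probe sets, -0.40 with the dimmest) and of LTA4H (0.0491 with equal medians, 0.0000 with equal trimmed means, 0.0062 with quantiles), and the line term of LTA4H (0.0120 with quantiles). The PTGER4 ratio with NTHi in Siglec-5/THP-1 turned to -0.21 on the probe set under the floor. Of 252 recomputed terms 212 kept direction and side of the threshold. Changes of floor, filter, trend or design left each term itself unchanged, so there only the side of the threshold could move. For genes with 1 probe set, averaging or taking the dimmest probe set repeats the same term. The count of 212 thus partly follows from the choice of settings. No paired analysis was possible because the labels give no replicate numbers and each condition has 1 array, beyond the cell line term of the shared fit, which already compares NTHi within each line. No array could be left out of that fit, since no residual degree of freedom would remain. The number of arrays limits the precision.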
